A study of Homo sapiens with 6 samples.

Results

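KLF5, 4 genes whose proteins set the stability of the KLF5 protein (WWP1, FBXW7, SMURF2 and BAP1) and 5 genes reported as KLF5 targets (CCND1, FGFBP1, TNFAIP2, PTGES and MYC) were followed after silencing of KLF5 in ovarian cancer cells. The 10 genes were chosen by name among the 29185 genes of the expression table, by a rule that uses no measured value. Earlier results of these data were known when this choice was made. All 10 had enough reads to be among the 15803 genes tested. RNA-seq of poly(A)-selected RNA was available for 3 libraries of cells with silenced KLF5 (sh-KLF5) and 3 libraries of control cells (sh-NC), all labelled SKOV3, an established human ovarian cancer cell line. The hairpin against KLF5 was delivered by lentivirus in a pLKO vector that also carries EGFP, and stable lines were selected with puromycin. The labels give the genotype of the controls as WT, whereas the design text of the series names them sh-NC, so it cannot be told from the labels whether the controls carried the vector too. Each group was 1 stable line as far as the sources say, and nothing says that the 3 libraries came from separate cultures, so the p-values measure only the spread between these libraries.

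KLF5 is a zinc finger transcription factor that binds GC-rich and CACCC-type sequences and drives proliferation and survival genes in many epithelia and carcinomas. The KLF5 protein is short-lived. WWP1 and SMURF2, ubiquitin ligases of the HECT class, and FBXW7, the substrate-binding subunit of an SCF ubiquitin ligase, mark it for the proteasome, whereas the deubiquitinase BAP1 removes ubiquitin from it. The libraries measure RNA, so they bear on the transcripts of these regulators and not on the KLF5 protein.

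KLF5, TNFAIP2 and PTGES were down-regulated and CCND1 was up-regulated in sh-KLF5 cells, although the TNFAIP2 call was lost in most fits without 1 library. None of the 4 genes that act on KLF5 stability passed the test. Thus 3 of the 10 genes were lower and 1 was higher at a Benjamini-Hochberg adjusted p-value under 0.05 from limma, against 6.85% and 6.04% of all tested genes. With a log2 fold change below -1 as a further condition, only KLF5 itself was lower, against 3.37% of all tested genes. KLF5 is the target of the hairpin, so its place among the lower genes in each of these counts was set by the design. None of the 10 passed both conditions in the up direction, against 1.90% of all tested genes. No sh-KLF5 library reached the lowest control for 5 genes (KLF5, BAP1, FGFBP1, TNFAIP2 and PTGES), against 15.9% of all tested genes. Every sh-KLF5 library exceeded the highest control for 2 (SMURF2 and CCND1), against 15.4%. For these 7 genes an exact permutation test gave a two-sided p = 0.1, the smallest that 3 libraries against 3 allow. The groups overlapped for WWP1, FBXW7 and MYC (exact permutation p = 0.8, 1 and 0.3). The median log2 fold change of all tested genes was -0.0023.

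**Figure D1:**
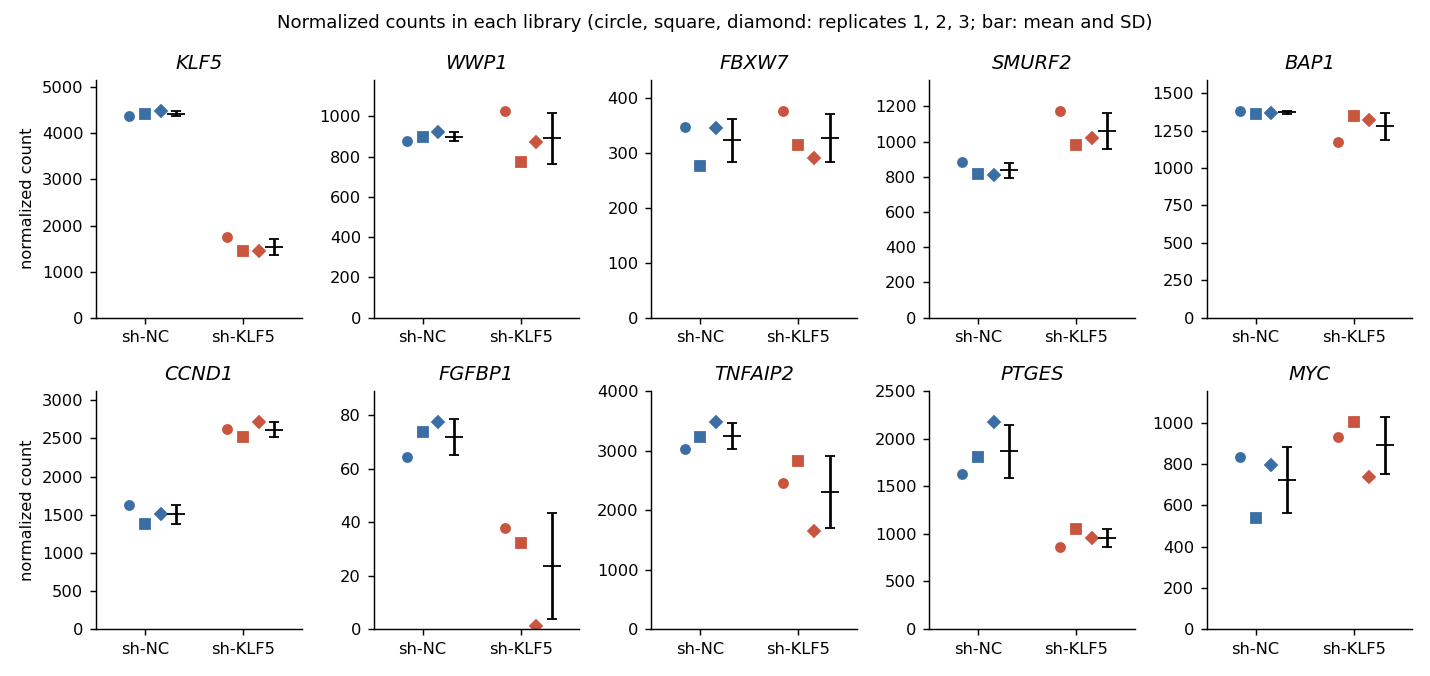
Normalized counts (y axis, reads divided by 1 factor per library, from 0) of the 10 genes in the 3 sh-NC and 3 sh-KLF5 libraries. Circles, squares and diamonds are replicates 1, 2 and 3 and the bars give the mean and SD; KLF5, PTGES and CCND1 are clearly separated, while the third sh-KLF5 library (diamond) sits apart for FGFBP1 and TNFAIP2.

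The promoters of TNFAIP2, PTGES and FGFBP1 are shown because these are the reported targets that were lower in every sh-KLF5 library. They are the 250 bases before the annotated start, 5′ to 3′ on the strand of the gene, from RefSeq on GRCh38.p14. Capitals mark every match, on either strand, to CCNCNCCC, a loose form of the GC-rich and CACCC-type sequences that factors of the KLF family bind.
TNFAIP2 promoter (chr14:103123211-103123460, + strand): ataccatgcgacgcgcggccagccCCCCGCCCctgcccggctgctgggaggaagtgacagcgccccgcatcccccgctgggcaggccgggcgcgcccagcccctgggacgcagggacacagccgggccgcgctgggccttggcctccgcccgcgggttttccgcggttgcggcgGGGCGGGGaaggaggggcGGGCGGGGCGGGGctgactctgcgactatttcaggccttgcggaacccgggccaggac
PTGES promoter (chr9:129753043-129753292, - strand): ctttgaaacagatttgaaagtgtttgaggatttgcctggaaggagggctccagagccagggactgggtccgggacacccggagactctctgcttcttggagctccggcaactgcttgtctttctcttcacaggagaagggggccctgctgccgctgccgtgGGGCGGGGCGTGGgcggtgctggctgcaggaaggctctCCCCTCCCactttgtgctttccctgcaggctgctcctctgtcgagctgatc
FGFBP1 promoter (chr4:15938741-15938990, - strand): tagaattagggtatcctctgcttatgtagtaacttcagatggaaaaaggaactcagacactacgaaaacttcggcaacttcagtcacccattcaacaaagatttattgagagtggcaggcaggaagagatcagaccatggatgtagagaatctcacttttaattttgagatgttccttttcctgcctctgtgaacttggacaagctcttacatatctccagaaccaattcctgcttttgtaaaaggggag
TNFAIP2 had 4 matches, which began 226, 76, 58 and 53 bases before the start. PTGES had 3 matches, which began 89, 84 and 51 bases before the start. FGFBP1 had none. Neighbouring matches can overlap, as the last 2 of TNFAIP2 and the first 2 of PTGES do. RefSeq promoters were found for 6 of the 10 genes (10 windows, since KLF5 has 2 starts and FBXW7 has 4), and not for WWP1, BAP1, CCND1 and MYC. The motif occurred in 7 of the 10 windows of 300 bases (250 before and 50 after the start), or 70.0%, against 56.2% of the 35116 promoters of the same length. It was in the second KLF5 window (3 matches) and not in the first, and SMURF2, which was not lower in any sh-KLF5 library, had 6 matches. A match is a description of these letters and says nothing of binding in these cells.

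Several facts of the libraries touch the values that follow. The reads counted on genes, recovered from the normalized values, ranged from 15852319 to 17543896 per library. Of 10659 genes with a mean normalized count of at least 100, between 6 and 9 deviated by more than 1 log2 unit from the other libraries of the group in each sh-NC library. In sh-KLF5 replicates 1, 2 and 3 these were 87, 15 and 37 genes. Epithelial markers were present, with KRT8 at 19441 to 23274 in sh-NC, and 2 of 7 (KRT8 and KRT18) passed the test, both lower in sh-KLF5 (log2 fold change -1.17 and -0.64). The summed level of the 7 was 25162 to 29960.0 in sh-NC and 11379 to 16196 in sh-KLF5. Of the others, EPCAM, CDH1, PAX8, ERBB2 and KRT19 did not pass, and KRT8 made up most of this sum. EPCAM was at 97.6 to 141 over the 6 libraries and KRT19 at 1.97 to 16.5. The leukocyte gene PTPRC was at 0 in sh-NC and at most 1.02 in sh-KLF5, whereas CD14 had 149 to 222 normalized counts in sh-NC and 189.5 to 379 in sh-KLF5 (log2 fold change 0.66, adjusted p = 0.0725, limma, Benjamini-Hochberg). The summed level of 3 fibroblast genes was 305 to 484 in sh-NC and 112 to 237 in sh-KLF5, of which DCN passed the test (log2 fold change -1.82). COL1A1 of the same list did not pass and had a log2 fold change of 0.30. The part of these marker levels in the results was not tested. SKOV3 is known for amplified ERBB2 and deletion of CDKN2A, and the values of both genes went against this. CDKN2A had 2321 to 3889 normalized counts over the 6 libraries. ERBB2 had 1836 to 2207 in sh-NC, at percentile 74.4 of tested genes per length. CDKN2A was looked at after other values had been seen. The identity of the line was not tested, and the values below are those of libraries labelled SKOV3.

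KLF5 (ENSG00000102554, GENCODE release 29 on GRCh38, chr13:73054976-73077542, + strand) is the gene the hairpin targets and checks the labels. Its normalized counts (reads divided by 1 factor per library) were 4371, 4425 and 4494 in the sh-NC replicates and 1745, 1439.9 and 1436 in the sh-KLF5 replicates. Every sh-KLF5 library was below every control, and the first kept somewhat more KLF5 than the other two. The silenced cells kept 34.8% of the mean control level, a log2 fold change of -1.53 (95% interval -1.77 to -1.28), and KLF5 stood at rank 38 of all tested genes by p-value. In bulk RNA, fewer cells with a transcript and less transcript per cell cannot be told apart, here and for the genes below. None of its exonic bases are shared with another annotated gene.

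By the root-mean-square difference of their centred log2 profiles over the 6 libraries, the genes most like KLF5 among 10658 candidates were CPS1, MAP2K6 and RGS3. CPS1, the first enzyme of the urea cycle, differed from the KLF5 profile by 0.053 log2 units and fell to 36.5% of its control level. MAP2K6, a kinase upstream of p38, differed by 0.115 log2 units and fell to 34.6%. RGS3, a regulator of G-protein signalling, differed by 0.12 log2 units and fell to 31.2%. These 3 were chosen for this likeness.

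The 4 genes that act on the stability of the KLF5 protein showed small differences in either direction. WWP1 (chr8:86342738-86478420, + strand), the HECT ligase that binds the PY motif of KLF5, had 879.9, 898 and 923 normalized counts in sh-NC and 1028, 773 and 871 in sh-KLF5. The sh-KLF5 libraries spread on both sides of the controls. The log2 fold change was -0.02 (95% interval -0.29 to 0.24, adjusted p = 0.933, limma, Benjamini-Hochberg).

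SMURF2 (chr17:64542295-64662068, - strand), a HECT ligase best known from TGF-beta receptor turnover, had 886, 814 and 811 normalized counts in sh-NC and 1175, 982 and 1018 in sh-KLF5. It was higher in each sh-KLF5 library than in any control, at 126% of the control mean. The log2 fold change of 0.33 (95% interval 0.08 to 0.59) missed the threshold (adjusted p = 0.0774, limma, Benjamini-Hochberg). The adjusted p ranged from 0.052 to 0.26 over the alternatives.

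FBXW7 (chr4:152320544-152536063, - strand), which recognizes phosphorylated degrons in KLF5, MYC and cyclin E, had 347, 277 and 345 normalized counts in sh-NC and 377, 314 and 291 in sh-KLF5. The 2 ranges overlapped over most of their width. The log2 fold change was 0.02 (95% interval -0.30 to 0.34, adjusted p = 0.959, limma, Benjamini-Hochberg). Leaving out sh-NC replicate 2 or sh-KLF5 replicate 1 turned its sign.

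BAP1 (chr3:52401013-52410350, - strand), the nuclear deubiquitinase of this group, had 1383, 1364 and 1369 normalized counts in sh-NC and 1176, 1346 and 1317 in sh-KLF5. The 3 controls were nearly equal and all sh-KLF5 libraries lay below them, the first by the most. The mean was 93.3% of the control mean and the log2 fold change was -0.10 (95% interval -0.34 to 0.13, adjusted p = 0.609, limma, Benjamini-Hochberg).

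**Figure D2:**
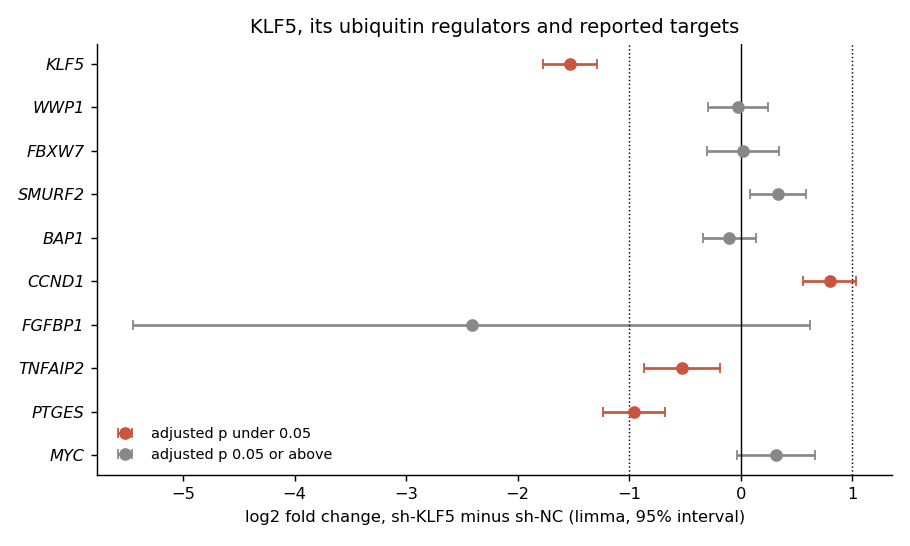
Log2 fold change of each gene (x axis, sh-KLF5 minus sh-NC on log2(normalized count + 1)) with its 95% interval from limma. Coloured points have an adjusted p under 0.05 and dotted lines stand at -1 and 1; the intervals of WWP1, FBXW7 and BAP1 span 0 and that of FGFBP1 runs from -5.44 to 0.63.

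The counts for further genes of these ubiquitin systems and of the lists below stand beside 6.85% lower and 6.04% higher of all tested genes. Among the other NEDD4-family HECT ligases, 0 of 7 were lower and 1 was higher, with a median log2 fold change over the whole list of 9 of 0.11 (range -0.18 to 0.63). NEDD4L, which ubiquitinates the epithelial sodium channel, had 676, 698 and 555 normalized counts in sh-NC and 966, 1015 and 998 in sh-KLF5. All sh-KLF5 libraries were above all controls (log2 fold change 0.63, adjusted p = 0.00219, limma, Benjamini-Hochberg). None of the 6 other genes of the FBXW7 system, its SCF subunits, the GSK3 kinases that prime its degrons and the opposing deubiquitinase USP28, passed the test (median of these 6 genes 0.17, range -0.05 to 0.27). Of 9 BAP1 partners and further KLF5 deubiquitinases, 8 did not pass and ASXL2 was lower (median of these 9 genes -0.12). ASXL2, a partner that activates BAP1, had 2137, 2086 and 1969 normalized counts in sh-NC and 1618, 1551 and 1650.4 in sh-KLF5. Its log2 fold change was -0.36 (adjusted p = 0.0369, limma, Benjamini-Hochberg), and it missed the threshold in 5 of the 6 fits without 1 library, where the adjusted p reached 0.186. YAP1, a coactivator that protects KLF5 from WWP1, did not pass (log2 fold change 0.05). Its relative WWTR1 (TAZ) was higher, with 925, 908 and 898 normalized counts in sh-NC and 1533, 1133 and 1106 in sh-KLF5. The log2 fold change of WWTR1 was 0.45 (adjusted p = 0.0347, limma, Benjamini-Hochberg), and without any 1 of the controls the adjusted p was 0.1 to 0.128.

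CCND1, PTGES and TNFAIP2 passed the test among the 5 reported targets, in both directions. CCND1 (chr11:69641087-69654474, + strand), the cyclin D1 that starts CDK4 and CDK6 activity in G1, had 1629, 1379 and 1511 normalized counts in sh-NC and 2619, 2515 and 2714 in sh-KLF5. Every sh-KLF5 library exceeded every control by a wide margin. The mean rose to 174% of the control mean, a log2 fold change of 0.80 (95% interval 0.56 to 1.04, adjusted p = 0.000129, limma, Benjamini-Hochberg). Of its exonic bases 10.3% are shared with LTO1 on the opposite strand, which was at 370 to 441 normalized counts and had a log2 fold change of -0.15. The strand setting of the counting is not given in the sources used here.

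CCND2, the paralog cyclin D2, moved the other way. CCND2 had 1011, 514 and 601 normalized counts in sh-NC and 11.2, 11.6 and 25.1 in sh-KLF5. The groups did not overlap, and the sh-KLF5 mean was 2.25% of the control mean (log2 fold change -5.42, adjusted p = 7.28e-09, limma, Benjamini-Hochberg). The other 5 genes of this list (CCND3, CDK4, CDK6, RB1 and CCNE1) did not pass, between -0.22 and 0.42 on the log2 fold change scale. The median of the list was 0.05, with CCND2 included and CCND1 left out. Of the exonic bases of CCND2, 13.8% are shared with other annotated genes.

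PTGES (chr9:129738331-129753047, - strand), the inducible enzyme that makes prostaglandin E2 from prostaglandin H2, had 1628, 1805 and 2177 normalized counts in sh-NC and 866, 1056 and 962 in sh-KLF5. The highest sh-KLF5 library was well under the lowest control. The mean was 51.4% of the control mean, a log2 fold change of -0.95 (95% interval -1.23 to -0.68, adjusted p = 9.80e-05, limma, Benjamini-Hochberg). PTGES stayed lower with an adjusted p under 0.05 in each fit without 1 library, at -1.05 to -0.84 on the log2 fold change scale, and passed the fold threshold without sh-NC replicate 1 (-1.05) or sh-KLF5 replicate 2 (-1.02).

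In the prostaglandin E2 pathway, 0 of the 7 other tested genes were lower and 2 were higher (median of these 7 genes, without PTGES, 0.21). PTGS2, the inducible cyclooxygenase that supplies the substrate of PTGES, had 1206, 1453 and 1526 normalized counts in sh-NC and 4944, 4015 and 2806 in sh-KLF5. All sh-KLF5 libraries were above all controls, at 281% of the control mean (log2 fold change 1.46, adjusted p = 1.85e-05, limma, Benjamini-Hochberg). SLCO2A1, the prostaglandin uptake transporter, had 128, 136 and 136 normalized counts in sh-NC and 182, 197 and 293 in sh-KLF5. Its log2 fold change was 0.72 (adjusted p = 0.0192, limma, Benjamini-Hochberg), and it missed the threshold without any 1 of the controls or without sh-KLF5 replicate 3 (adjusted p 0.0652 to 0.0903). PTGS1, the constitutive cyclooxygenase, had 26.1, 17.7 and 22.3 normalized counts in sh-NC and 13.3, 7.76 and 13.0 in sh-KLF5, and did not pass (log2 fold change -0.92, adjusted p = 0.156, limma, Benjamini-Hochberg).

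TNFAIP2 (chr14:103123442-103137439, + strand), a gene induced by TNF whose protein takes part in membrane protrusions and cell migration, had 3036, 3233 and 3483 normalized counts in sh-NC and 2452, 2825 and 1642 in sh-KLF5. All sh-KLF5 libraries were under all controls, and the third was far below the other two. The mean was 70.9% of the control mean, a log2 fold change of -0.53 (95% interval -0.87 to -0.19, adjusted p = 0.0397, limma, Benjamini-Hochberg). Without sh-KLF5 replicate 3 it was -0.30 (adjusted p = 0.141), and without sh-NC replicate 1, 2 or 3 or sh-KLF5 replicate 1 the adjusted p was 0.0703 to 0.172 while the log2 fold change was -0.59 to -0.48.

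Of 9 other NF-kappaB subunits and NF-kappaB-induced genes, 0 were lower and 2 were higher (median of these 9 genes, without TNFAIP2, 0.11). TNFAIP3 (A20), which restrains NF-kappaB signalling, had 534, 499.6 and 537 normalized counts in sh-NC and 1025, 1277 and 864 in sh-KLF5. It rose to 202% of the control mean (log2 fold change 0.99, adjusted p = 0.000133, limma, Benjamini-Hochberg). RELB, a subunit of the non-canonical pathway, had 307, 301 and 354 normalized counts in sh-NC and 406, 558 and 526 in sh-KLF5. Its log2 fold change was 0.62 (adjusted p = 0.0102, limma, Benjamini-Hochberg), and it missed the threshold without sh-NC replicate 2 (adjusted p = 0.0657) or sh-KLF5 replicate 2 (0.0608). TNFAIP2 was the only gene of these 10 that was lower by the test. None of 5 genes for small GTPases and the exocyst subunit linked to TNFAIP2 passed, with log2 fold changes from -0.05 to 0.12. Of these, CDC42 shares 59.4% of its exonic bases with other annotated genes and was at 21.3 to 45.6 normalized counts, so its value cannot be read as its expression.

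FGFBP1 (chr4:15935569-15938740, - strand), a secreted carrier that releases FGFs from the matrix, had low counts. Only its value in sh-KLF5 replicate 3 was near the lower end of what these libraries can measure. Per length, FGFBP1 stood at percentile 43.0 of tested genes in sh-NC and 23.4 in sh-KLF5. It had 69, 75 and 73 reads in sh-NC and 37, 33 and 1 read in sh-KLF5, or 64.2, 73.9 and 77.5 against 37.7, 32.02 and 1.003 normalized counts. All sh-KLF5 libraries were under all controls, and the third held a single read. The log2 fold change of -2.41 had a 95% interval from -5.44 to 0.63 and did not pass (adjusted p = 0.291, limma, Benjamini-Hochberg). Without sh-KLF5 replicate 3 it was -1.02 and passed (adjusted p = 0.0196). On the recovered reads it was -1.60 with edgeR and -1.61 with DESeq2, and neither passed (adjusted p = 0.0900 and 0.376, Benjamini-Hochberg). Of 6 other tested FGF-binding proteins, ligands and receptors, 0 were lower and 2 were higher (median of these 6 genes, without FGFBP1, 0.01). FGF2, a ligand that FGFBP1 carries, had 3489, 3239.9 and 2948 normalized counts in sh-NC and 8256, 5237 and 5396 in sh-KLF5. It rose to 195% of the control mean (log2 fold change 0.94, adjusted p = 0.000537, limma, Benjamini-Hochberg). FGFR2, an FGF receptor, had 22.3, 11.8 and 18.0 normalized counts in sh-NC and 68.3, 53.4 and 62.2 in sh-KLF5. It rose to 352% (log2 fold change 1.79, adjusted p = 0.000877, limma, Benjamini-Hochberg), from a low level.

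MYC (chr8:127735434-127741434, + strand), the growth-promoting transcription factor that FBXW7 also turns over, had 832, 540.0 and 796 normalized counts in sh-NC and 932, 1004 and 739 in sh-KLF5. The groups overlapped, and the second control was the lowest of all 6. The log2 fold change was 0.32 (95% interval -0.03 to 0.66, adjusted p = 0.241, limma, Benjamini-Hochberg), and without sh-NC replicate 2 it was 0.12. None of the 10 other genes of the MYC network passed (median of these 10 genes 0.16, range -0.38 to 0.34). None of 7 genes that MYC is known to induce, such as ODC1 and NCL, passed either, with a median log2 fold change of -0.19 and a range from -0.35 to 0.15.

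**Figure D3:**
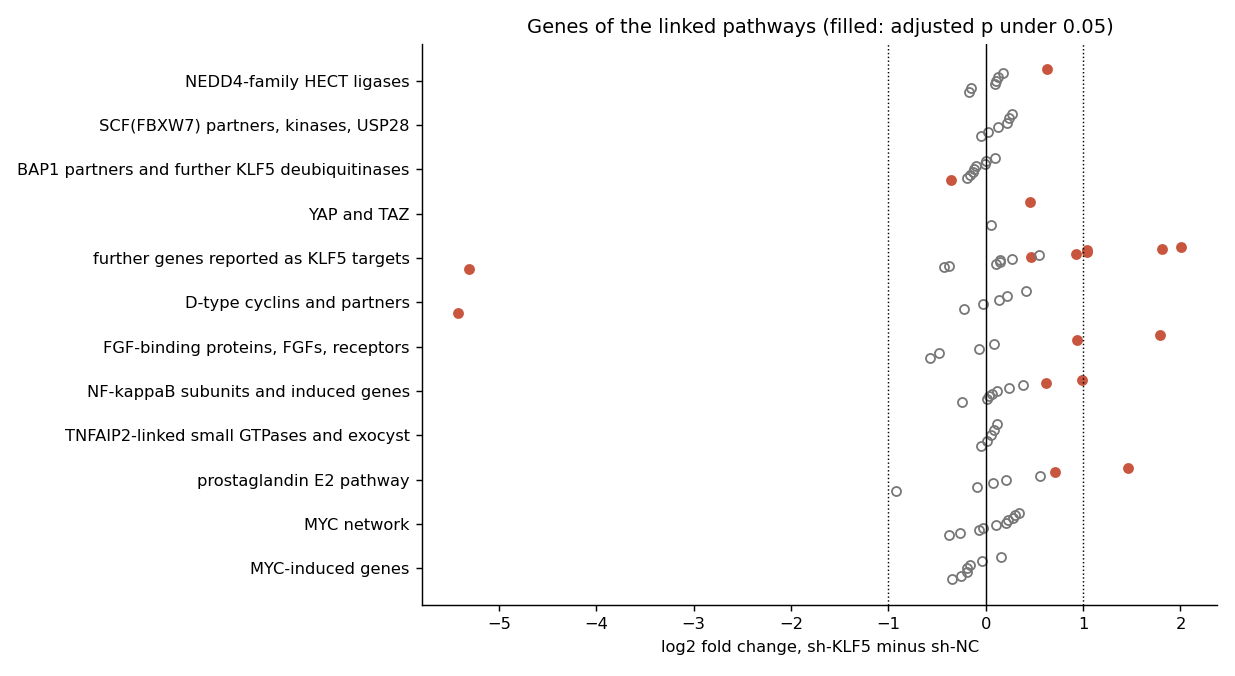
Log2 fold change (x axis, sh-KLF5 minus sh-NC) of the other tested genes of 12 pathway lists, 1 point per gene, filled where the adjusted p was under 0.05 and with dotted lines at -1 and 1. Most points lie near 0; CCND2 at -5.42 and VIM at -5.30 stand far to the left, and the filled points to the right include CDKN1A at 1.81 and FGFR2 at 1.79.

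Of 17 further genes reported as KLF5 targets, 14 could be tested, and 1 was lower, 6 were higher and 7 did not pass, with 4 of the 6 also above a log2 fold change of 1 (median of the list 0.37). Of all tested genes, 6.85% were lower, 6.04% were higher and 1.90% were higher by both conditions. VIM (vimentin, the intermediate filament of mesenchymal cells) had 4068, 2614 and 2918 normalized counts in sh-NC and 103, 60.2 and 78.2 in sh-KLF5. It fell to 2.51% of the control mean (log2 fold change -5.30, adjusted p = 1.2e-10, limma, Benjamini-Hochberg). The study chose VIM using these libraries together with its known link to tumour malignancy. The fall of VIM here is therefore not independent evidence of the direction of the list. The study also reported qPCR, western blot, promoter reporter and ChIP-qPCR results for VIM. Of its exonic bases 24.4% are shared with other annotated genes. CDKN1A, the CDK inhibitor p21, had 1759, 1321 and 1532 normalized counts in sh-NC and 6529, 5829 and 4022 in sh-KLF5, or 355% of the control mean. Every sh-KLF5 library exceeded every control (log2 fold change 1.81, adjusted p = 1.20e-06, limma, Benjamini-Hochberg). SNAI2, a repressor of epithelial genes, had 93.1, 74.9 and 79.6 normalized counts in sh-NC and 183, 150.4 and 176 in sh-KLF5 (log2 fold change 1.04, adjusted p = 0.00118, limma, Benjamini-Hochberg). LAMA1, a laminin chain, had 44.7, 33.5 and 22.3 normalized counts in sh-NC and 79.5, 52.4 and 73.2 in sh-KLF5 (log2 fold change 1.04). Its call (adjusted p = 0.029, limma, Benjamini-Hochberg) was lost without sh-NC replicate 2 or 3 or sh-KLF5 replicate 1 or 3, with adjusted p from 0.0569 to 0.133. PDGFA, a platelet-derived growth factor, and EGFR, the epidermal growth factor receptor, were also higher (log2 fold change 0.93 and 0.46), and EGFR missed the threshold without sh-NC replicate 1 (adjusted p = 0.0888, limma, Benjamini-Hochberg). The 3 untested genes, IGFL1 and MMP9 among them, had too few reads. Over the 12 lists, 3 of 88 other tested genes were lower, 14 were higher and 71 did not pass, against 6.85% lower and 6.04% higher of all tested genes. A further 5 list genes had no row in the table. With limma without trend and robust, ASXL2, WWTR1, EGFR, LAMA1, RELB and SLCO2A1 also missed the threshold (adjusted p 0.0551 to 0.146), as did ASXL2 with no filter (0.0582).

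Levels of the 10 genes can be compared with each other only per length. Each normalized count was therefore divided by the exonic length of its gene in kilobases. This length joins the exons of all annotated transcripts and can exceed that of the transcripts expressed here, so the order also depends on the annotation. In sh-NC the order of the mean level per kilobase was KLF5 (1138), PTGES (986), TNFAIP2 (646), CCND1 (312), BAP1 (271), MYC (241), WWP1 (142), SMURF2 (120.2), FGFBP1 (52.9) and FBXW7 (29.1). Only KLF5 and PTGES, and BAP1 and MYC, were neighbours whose ranges overlapped. KLF5 stood at percentile 97.3 of all tested genes per length in sh-NC. In sh-KLF5 the order was CCND1 (542), PTGES (507), TNFAIP2 (459), KLF5 (396), MYC (297), BAP1 (253), SMURF2 (152), WWP1 (141), FBXW7 (29.5) and FGFBP1 (17.3). The ranges of neighbours overlapped from CCND1 to KLF5, although all libraries of CCND1 and PTGES lay above those of KLF5. Those of MYC and BAP1, of SMURF2 and WWP1, and of FBXW7 and FGFBP1 overlapped too. KLF5 stood at percentile 88.0 here. CCND1 per length went from 27.4% of the KLF5 level in sh-NC to 137% in sh-KLF5. The transcripts of the regulators also became larger relative to that of KLF5, per length, from 12.5% to 35.5% for WWP1, from 10.6% to 38.4% for SMURF2, from 2.56% to 7.46% for FBXW7 and from 23.8% to 64.0% for BAP1. KLF5, the gene that the hairpin targets, is the denominator of these ratios.

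**Figure D4:**
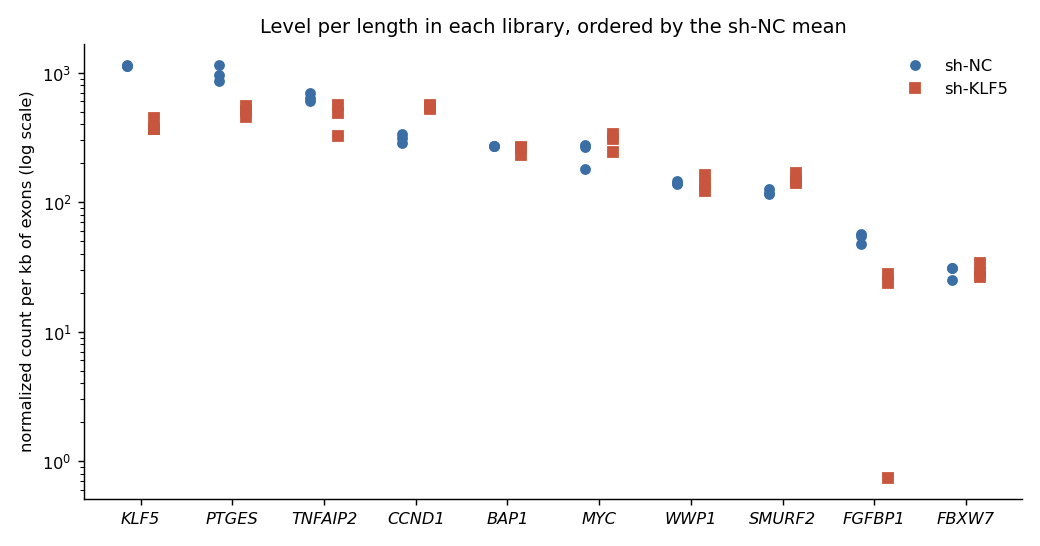
Normalized count per kilobase of exons (y axis, log scale) of the 10 genes in each library, ordered by the sh-NC mean, with circles for sh-NC and squares for sh-KLF5. KLF5 goes from the top of the order (1138 on average) to 396, and CCND1 from 312 to 542, while WWP1 has 142 and 141 and FBXW7 has 29.1 and 29.5.

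Most genes next to these 10 did not pass the test, as was true of all tested genes (6.85% lower, 6.04% higher). Within 250 kb, 38 other protein-coding genes were tested, and their log2 fold changes ran from -0.61 to 0.71. Of these, 2 passed, both near PTGES and both lower, namely C9orf78 (-0.42, adjusted p = 0.0433) and FNBP1 (-0.42, adjusted p = 0.0243, limma, Benjamini-Hochberg for both). Both were named after their values were seen. The other 6 tested neighbours of PTGES did not pass, and PIBF1, the 1 tested neighbour of KLF5, had a log2 fold change of 0.14. MYC had no tested protein-coding neighbour in this range.

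The weight of single libraries differed among the 10 genes. KLF5 stayed between -1.62 and -1.48 and CCND1 between 0.74 and 0.86 on the log2 fold change scale when each library was left out in turn. The sh-KLF5 replicate 3 deviated from the mean of the other 2 libraries of its group by -4.16 log2 units for FGFBP1 and by -0.68 for TNFAIP2, and by 0.01 for PTGES. Against the other 2 controls, sh-NC replicate 2 deviated by -0.59 for MYC and by -0.32 for FBXW7.

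**Figure D5:**
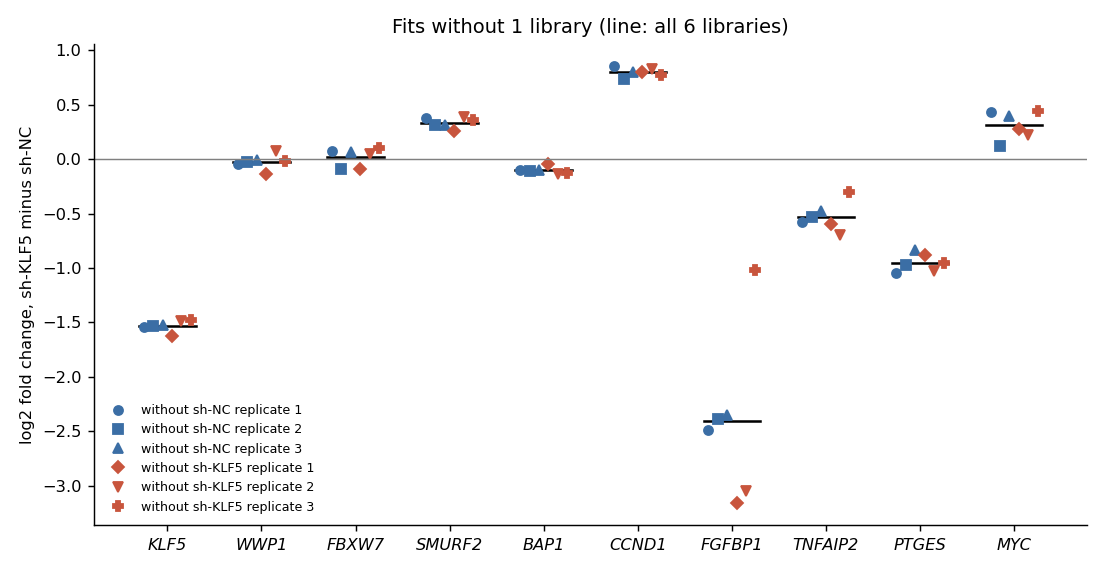
Log2 fold change of each gene (y axis, sh-KLF5 minus sh-NC) in 6 fits that each left out 1 library (points), with the fit of all 6 libraries as a line. The points stay close to the line for KLF5, CCND1 and BAP1, while FGFBP1 runs from -3.16 to -1.02 and TNFAIP2 from -0.69 to -0.30.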

How the data were processed

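RNA-seq was performed on 6 libraries labelled SKOV3, 3 per group, with groups and replicate numbers from the sample titles. The deposited table holds, for 29185 genes, 1 normalized signal (a normalized count) for each library, which the authors obtained from gene read counts with a size factor per library. The submitters' processing notes name HISAT2 2.0.5, featureCounts 1.5.0-p3, DESeq2 1.20.0 and hg38, and the genes matched GENCODE release 29 (100%). The same table holds the authors' fold changes and p-values, which were not used. The table also holds gene lengths.

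Division by the smallest nonzero value of a library gave back its reads (100% whole within 1e-6). Genes kept by filterByExpr (minimum count 10) were compared with limma 3.58.1 (trend, robust) in R 4.3.3 on log2(normalized count + 1). Benjamini-Hochberg adjustment was over 15803 genes. The added 1 shrinks differences between low values, yet FGFBP1 fell more on this scale (-2.41) than with edgeR (-1.60) or DESeq2 (-1.61). Single genes also had an exact permutation test, two-sided. Alternatives were edgeR 4.0.16 and DESeq2 1.42.0 on the recovered reads, limma without trend and robust, other scalings, filters and pseudocounts, a replicate block and leaving out each library. The scripts were tested on simulated data. The replicate pairs of each group differed by more than counting noise (chi-square per degree of freedom 4.69 to 33.3). The 10 genes and the pathway lists were chosen with earlier results of these data known. List genes past the test were named, up to 4 a list and direction, and PDGFA and EGFR were added to these after their values were seen. A few genes covered by these rules are not reported here. Likeness to KLF5 used genes with a mean normalized count of at least 100. Promoters came from RefSeq. Figures were drawn with matplotlib 3.10.9.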

Additional observations from a re-analysis of the deposited data

How the results depend on the processing

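The log2 fold changes of KLF5, CCND1 and PTGES kept their direction and an adjusted p under 0.05 under every alternative run, and those of SMURF2, BAP1 and MYC kept their direction and missed the threshold. TNFAIP2 missed the threshold with limma without trend and robust (-0.53, adjusted p = 0.202) and with library size only (-0.52, adjusted p = 0.0629), and ran from -0.69 to -0.30 with 1 library left out. With 1 library left out, FGFBP1 ran from -3.16 to -1.02, FBXW7 from -0.0883 to 0.0996 with a reversed sign without sh-NC replicate 2 or sh-KLF5 replicate 1, and WWP1 from -0.13 to 0.0727 with a reversed sign without sh-KLF5 replicate 2. FGFBP1 was removed when each library had to hold 10 reads and has no value there. Lower by both conditions were 1 to 2 of the 10 genes with 1 library left out. Of all tested genes, 518 to 1272 were higher and 699 to 1514 were lower (adjusted p) with 1 library left out, against 955 and 1083 with all, and limma without trend and robust gave 512 higher. By both conditions 811 were lower with no filter and 231 when each library had to hold 10 reads, against 533, where fewer or more genes were tested. For the other changes the cause was not tested. The 17 called pathway genes gave 246 fits of the same call and 26 that missed the threshold, with no reversed sign. Same-numbered libraries correlated in their deviations by only 0.033 to 0.059, so the replicate numbers were not taken as pairs. With a replicate block, TNFAIP2 had an adjusted p of 0.00751 and SMURF2 of 0.052, the counts of all tested genes were 1383 lower and 1292 higher, and no call of the 10 genes changed.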
